A study of Homo sapiens with 2 samples.

Results

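The genes described here build the centromere and the kinetochore and run the spindle checkpoint, and they were read in MDA-MB-231 cells, a human triple-negative breast cancer line, after a small interfering RNA (siRNA) against HNRNPF. They were chosen by symbol: every gene of the table whose symbol is CENP followed by 1 letter (21 genes) and 24 named subunits and regulators, 45 of the 20323 genes. Polyadenylated RNA was sequenced from 1 library of cells given a negative-control siRNA and 1 library of cells given the HNRNPF siRNA; both groups are the same line and differ, per the labels, in the siRNA. Because each group holds 1 library, no spread between cultures is known and no test was run. Higher and lower describe these 2 libraries, here called control and knockdown, and every 95% interval is exact and covers counting error alone. Pairs of counts are given with the control first.

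The centromere is the chromosomal site where CENP-A replaces ordinary histone H3, and a network of CENP proteins, the constitutive centromere-associated network (CCAN), sits on that chromatin through the cell cycle. On it the outer kinetochore assembles, whose KNL1, MIS12 and NDC80 complexes hold spindle microtubules. The SKA complex stabilises that grip. Kinetochores without microtubules start the spindle checkpoint, which delays anaphase, and the chromosomal passenger complex with the kinase Aurora B releases faulty attachments. Many of these genes are transcribed mainly in G2 and M phase, so a bulk level follows how many cells are dividing. In bulk RNA, fewer cells in those phases and less RNA per cell cannot be told apart.

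A known promoter feature of genes of this kind is the cell cycle homology region, with the core letters TTTGAA or TTCGAA, close to the transcription start, where the MuvB complexes bind. Promoters, taken as 250 bases before to 50 bases after the start (RefSeq, GRCh38.p14), were found for 37 of the 45 genes; BIRC5, BUB3, CENPH, CENPJ, CENPL, CENPM, KNL1 and TTK had no entry. Searching both strands between 100 bases before and 50 bases after the start, either core was present in 17 of 37 promoters, 45.9%, against 4.23% of the 9760 promoters of expressed genes and 7.43% of all 27305. Over the whole window the shares were 48.6%, 10.9% and 16.6%. CCAAT, searched on both strands, was in 56.8%, 37.1% and 35.7%; none of these words contains another. A match is a description of the letters and not a shown binding site. The sequences below show, in capitals on the gene's strand, the element upstream of 4 of these genes, chosen to span the roles: a checkpoint kinase, the centromeric histone, an outer kinetochore protein and a passenger subunit. The CDCA8, BUB1B and CENPA elements read TTTGAA along the gene and the ZWINT element reads it on the opposite strand.
BUB1B (chr15:40161034-40161063, plus strand, element at -23 from the start): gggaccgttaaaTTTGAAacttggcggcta
CENPA (chr2:26786026-26786055, plus strand, element at -18): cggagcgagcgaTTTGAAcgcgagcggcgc
ZWINT (chr10:56361273-56361302, minus strand, element at -31): gtcgactgtgacTTCAAAgtaatcttaggg
CDCA8 (chr1:37692481-37692510, plus strand, element at -23): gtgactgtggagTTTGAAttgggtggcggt

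The control library held 20654622 estimated counts and the knockdown library 20134572. The knockdown column is headed si848 and was assigned because the table names HnRNPF siRNA as what the control is compared with. HNRNPF itself, the RNA-binding protein targeted, had 6373 control and 2451 knockdown counts, 38.8% of the control level. The line's mesenchymal markers were high, with VIM at 1723 and AXL at 209 FPKM (fragments per kilobase of transcript, scaled for depth) in the control, while PGR, CD3E and VWF were at 0 counts in both libraries. ESR1 had 3 and 8 counts, CDH1 3 and 0, EPCAM 34 and 47, PTPRC 0 and 2, ALB 0 and 1, PECAM1 97 and 70 and EPOR 73 and 79. ERBB2, by contrast, was present at 17.4 FPKM in the control.

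All 45 genes were expressed, which here means a mean of at least 1 CPM (counts per 1000000 of the scaled library) over both libraries and 20 counts in their sum; the lowest mean was 6.87 CPM. By the authors' FPKM, which corrects for length, control levels ran from 5.54 for CENPH to 140.8 for BUB3, with a median of 24.0. After BUB3, a checkpoint protein that carries BUB1 and BUBR1 to kinetochores, came ZWINT at 84.5, BUB1 at 79.0, SKA2 at 73.4, CENPF at 56.0 and CENPU at 55.8 FPKM. Subunits of a complex did not share a level. The NDC80 complex, a rod of 4 proteins, had NUF2 at 48.3 and NDC80 at 41.2 FPKM in the control but SPC25 at 17.7 and SPC24 at 12.3, a 3.93-fold range. In the CENP-O/P/Q/U group the range was 6.78-fold, from CENPP at 8.23 to CENPU at 55.8, and in the CENP-T/W/S/X group 1.61-fold, from CENPT at 13.7 to CENPW at 22.1. Neighbours in this order lie close together, and with 1 library per group their order cannot be set against a spread between cultures.

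**Figure D1:**
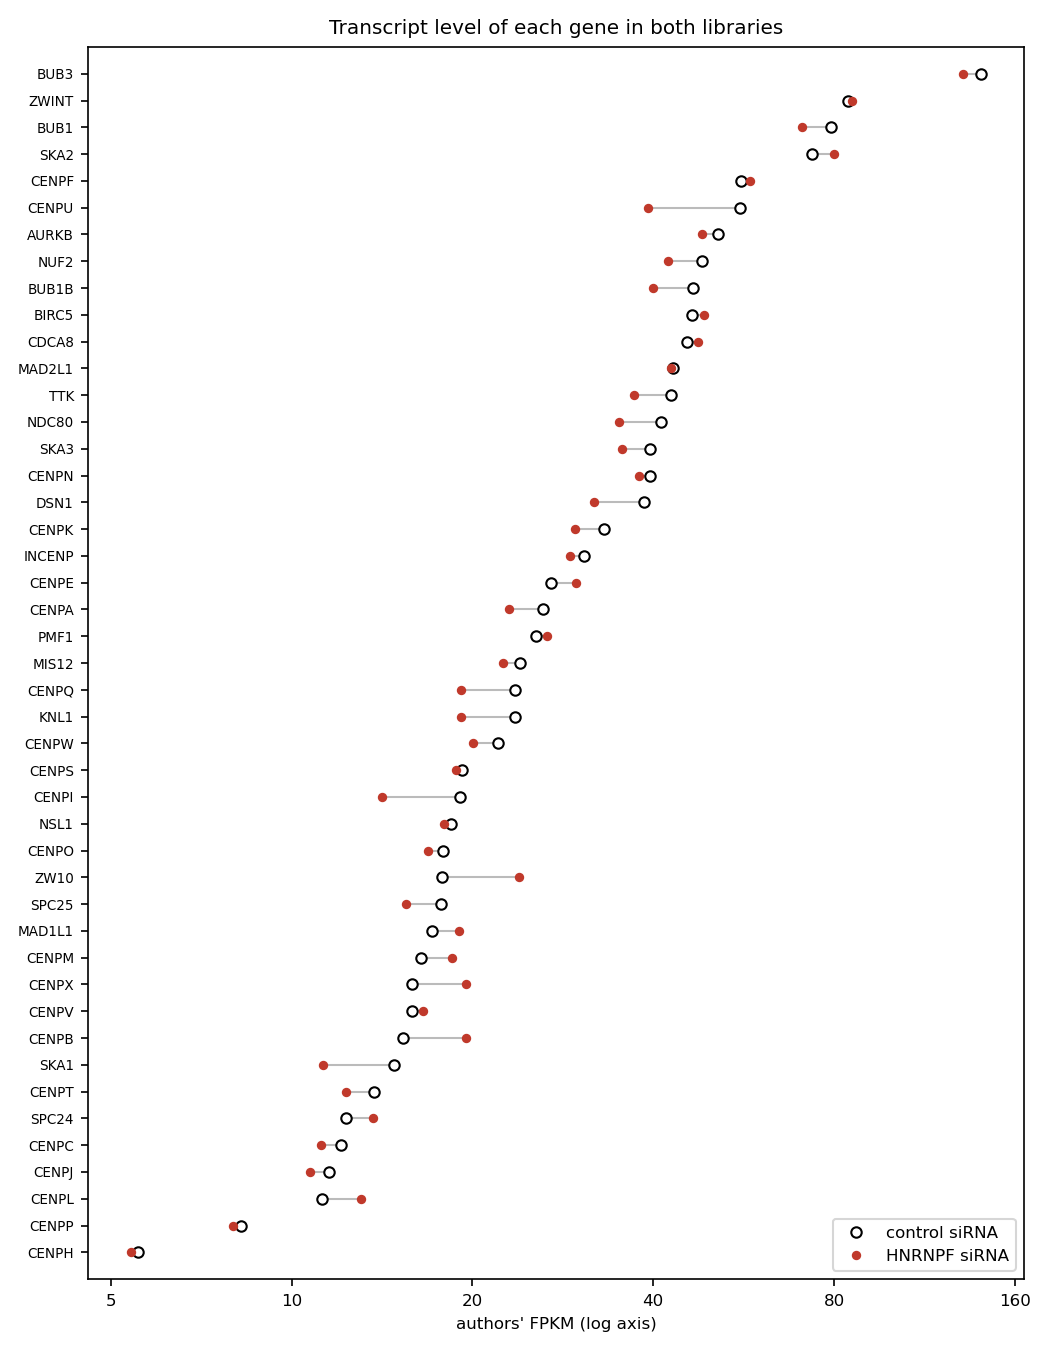
FPKM of each of the 45 genes in the control library (open circles) and the HNRNPF siRNA library (filled circles) on a log axis, ordered by the control. The order from BUB3 at 140.8 to CENPH at 5.54 was much the same in both libraries, and CENPU moved down the scale from 55.8 to 39.2.

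In the knockdown library these genes lay slightly below the control as a group, and most differences were small. Of the 45 genes 29 were below control (64.4%), where 50.0% of the 12078 expressed genes were, and the median log2 ratio of CPM, HNRNPF siRNA over control, was -0.09, against 0.00 for all expressed genes. The middle part of the distribution, from the 25th to the 75th percentile, ran from -0.21 to 0.04, against -0.15 to 0.15. At least 1.2-fold lower were 6 genes (13.3%), where 12.3% of all expressed genes were, and at least 1.2-fold higher were 3 (6.67%), where 14.3% were. Of the 10538 genes at 5 CPM or more, 11.0% were at least 1.2-fold lower and 11.3% at least 1.2-fold higher. The share at least 1.2-fold lower was thus near the background. At 1.5-fold 1 gene was lower, where 2.42% of all expressed genes and 1.75% of the 10538 were, and 0 were higher, where 2.88% and 1.27% were. The counting interval lay wholly below 0 for 19 genes (42.2%; 24.5% of all expressed genes) and wholly above 0 for 5 (11.1%; 21.4%), and it spanned 0 for 21. Since all 45 genes exceed 5 CPM, the 10538 genes at that level are a closer comparison: 51.2% of them were below control, 27.0% had an interval below 0 and 22.5% one above. Summed, the 45 genes took 3886 CPM in the control and 3656 CPM in the knockdown library.

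**Figure D2:**
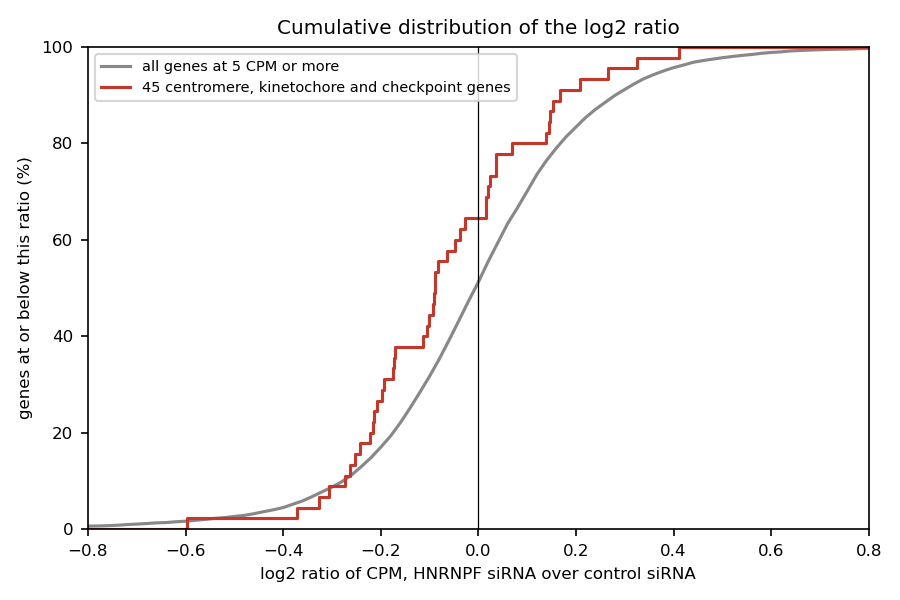
Cumulative share of genes (%) at or below each log2 ratio of CPM, HNRNPF siRNA over control, for the 45 genes (steps) and for 10538 genes at 5 CPM or more (smooth line). At a ratio of 0 the steps stand at 64.4% and the smooth line at 51.2%, and below about -0.3 the curves run together.

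Among proteins of centromeric chromatin and the CCAN, 10 of 17 genes (58.8%) lay below control, where 50.0% of all expressed genes did. The other 7 lay above control, and the median log2 ratio of the 17 was -0.09. The gene furthest below control of all 45 was CENPU (ENSG00000151725, GRCh38 chromosome 4, 184694618 to 184734133, minus strand), whose protein brings Polo-like kinase 1 to the kinetochore. It had 2376 control counts (116 CPM) and 1557 knockdown counts (76.6 CPM). The log2 ratio was -0.60 (95% interval -0.69 to -0.51), or 66.1% of control. Its deposited counts carry fractions, which arise when reads are split between genes, and its span overlaps PRIMPOL on the opposite strand, which had 293 and 224 counts. The authors' deposited table gives CENPU a log2 fold change of -0.51, taken from FPKM.

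CENPU works beside CENPO, CENPP and CENPQ, and these partners did not move as a block. CENPQ, which also helps bind microtubules, had 848 counts against 671 (log2 ratio -0.33, 95% interval -0.47 to -0.18). CENPO had 1526 counts against 1399 (log2 ratio -0.11, 95% interval -0.22 to -0.01), and CENPP 458 and 477 counts, with a log2 ratio of 0.07 whose interval spanned 0. CENPO overlaps ADCY3 on the opposite strand, which had 1596 and 2208 counts. Reads of opposite strands cannot be told apart if counting ignored strand, and the sources used here do not say whether it did. Taking the farthest pair of each complex, a choice made after the values were seen, the log2 ratio of CENPP exceeded that of CENPU by 0.67 (exact 95% interval 0.46 to 0.88). The remaining subunit of this group, CENP-R, is encoded by ITGB3BP, which had 227 counts against 277 (log2 ratio 0.30, 95% interval 0.04 to 0.56).

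In the CENP-H/I/K/M group, which helps to load new CENP-A, a pair of subunits was lower and the other pair had intervals that span 0. CENPI had 1079 control and 866 knockdown counts (log2 ratio -0.31, 95% interval -0.44 to -0.18). CENPK had 984 counts against 851 (log2 ratio -0.20, 95% interval -0.33 to -0.06). The less abundant CENPM, with 314 and 345 counts, had a log2 ratio of 0.15, and CENPH, with 133 and 147 counts, also of 0.15. At these depths a difference was not detectable for either, since their intervals ran from -0.08 to 0.37 and from -0.19 to 0.50.

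CENPA, the centromeric histone H3 variant, had 744 counts against 639 (log2 ratio -0.21, 95% interval -0.36 to -0.05). CENPC, which binds that nucleosome and links it to the outer kinetochore, had 895 and 835 counts and an interval from -0.23 to 0.05. The CENP-N and CENP-L pair, CENP-N being a reader of the CENP-A nucleosome, had log2 ratios of 0.02 and 0.14, with intervals that spanned 0. The histone-fold proteins CENPT, CENPW and CENPS had log2 ratios of -0.10, -0.17 and -0.06, and their intervals spanned 0 as well. Their partner CENPX, which also serves the Fanconi anaemia repair pathway with CENPS, had 247 control and 295 knockdown counts (log2 ratio 0.27, 95% interval 0.02 to 0.52). CENPX overlaps LRRC45 on the opposite strand, which had 379 and 416 counts. CENPS shares reads with the readthrough gene CENPS-CORT, and the sum of both, 381 and 383 counts, had a log2 ratio of 0.02. CENPB, which binds a short box in alpha-satellite DNA and is not part of the CCAN, was the highest of the 17, with 913 counts against 1136 (log2 ratio 0.33, 95% interval 0.20 to 0.45).

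In the outer kinetochore 8 of 10 genes were below control, where 50.0% of all expressed genes were, with a median log2 ratio of -0.16. Of the intervals 5 lay below 0 and 0 above it, where 24.5% and 21.4% of all expressed genes had such intervals. The median GC content of these transcripts was 40.1%, and of all expressed genes with up to 42.2% GC, 66.0% were below control. With the GC and length trend of all expressed genes removed, the median of the 10 genes was -0.11. KNL1, the scaffold on which BUB1 and BUBR1 dock, had 3870 control counts (189 CPM) and 3176 knockdown counts (156 CPM). Its log2 ratio was -0.27 (95% interval -0.34 to -0.21), and that of its partner ZWINT was -0.03, with 2632 and 2563 counts. In the MIS12 complex, which joins the inner and outer kinetochore, DSN1 had 1594 counts against 1327 (log2 ratio -0.25, 95% interval -0.36 to -0.15). The other subunits MIS12 (-0.10), NSL1 (-0.05) and PMF1 (0.04) had intervals that spanned 0. PMF1 counts are not whole, and its sum with the readthrough gene PMF1-BGLAP, 634 and 615 counts, had a log2 ratio of -0.03.

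The microtubule-binding arm of the NDC80 complex was lower evenly. NDC80 had 1727 counts against 1470 (log2 ratio -0.22, 95% interval -0.32 to -0.12), and NUF2, which shares its coiled coil, 1935 counts against 1654 (log2 ratio -0.22, 95% interval -0.31 to -0.12). SPC25, of the arm that faces the chromosome, had 491 and 420 counts and a log2 ratio of -0.21 (95% interval -0.41 to -0.02). Its direct partner SPC24 had 411 control and 449 knockdown counts (log2 ratio 0.14, 95% interval -0.06 to 0.34). The difference between SPC24 and NDC80, again the farthest pair, was 0.36 (95% interval 0.14 to 0.58).

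The SKA complex, a trimer that follows microtubule ends, was divided. SKA1 (chromosome 18, 50374995 to 50394173, plus strand) had 505 counts against 387 (log2 ratio -0.37, 95% interval -0.57 to -0.18), or 77.3% of control. SKA3 had 1993 counts against 1754 (log2 ratio -0.17, 95% interval -0.27 to -0.08). SKA2, by contrast, had 2002 control and 2232 knockdown counts (log2 ratio 0.17, 95% interval 0.08 to 0.26). SKA1 and SKA2, again the farthest pair, differed by 0.54 (95% interval 0.33 to 0.75). SKA2 lies head to head with PRR11 on chromosome 17, and PRR11 had a log2 ratio of -0.12 with 4726 and 4323 counts.

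The checkpoint genes held both lower kinases and the highest of the 45 genes. BUB1B, which encodes BUBR1, a part of the complex that inhibits anaphase, had 3511 counts against 2903 (log2 ratio -0.26, 95% interval -0.33 to -0.19). TTK, the kinase MPS1 that starts checkpoint signalling, had 2662 counts against 2234 (log2 ratio -0.24, 95% interval -0.32 to -0.16). BUB1, a kinase that also marks the centromere for shugoshin, had 5580 counts (273 CPM) and 4845 (238 CPM), a log2 ratio of -0.19 (95% interval -0.25 to -0.14). BUB3 (-0.08, interval below 0) and MAD2L1 (-0.09, interval spanning 0), which encodes the inhibitor MAD2, lay nearer to control. MAD1L1, the kinetochore anchor of MAD2, had 542 counts against 622 (log2 ratio 0.21, 95% interval 0.04 to 0.38). Its deposited control count carries a fraction.

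ZW10 (ENSG00000086827, chromosome 11, 113733187 to 113773811, minus strand) was the highest. Its protein brings dynein and MAD1 to kinetochores and, outside mitosis, works in membrane transport between Golgi and endoplasmic reticulum. The gene had 1023 control counts (50.0 CPM) and 1350 knockdown counts (66.5 CPM) (log2 ratio 0.41, 95% interval 0.29 to 0.53), 1.33-fold higher. Its partners in the RZZ complex, which are not among the 45, were lower: ZWILCH by a log2 ratio of -0.21 (95% interval -0.28 to -0.14) and KNTC1 by -0.15 (95% interval -0.21 to -0.08). Both were named after their values were seen.

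The chromosomal passenger complex lay near control, with all 4 log2 ratios between -0.09 and 0.04. AURKB, the Aurora B kinase, had 1155 counts against 1076 (log2 ratio -0.09, 95% interval -0.21 to 0.03). INCENP, its scaffold and activator, had 2499 counts against 2324 (log2 ratio -0.09, 95% interval -0.18 to -0.01). BIRC5, which encodes survivin and docks the complex on histone H3, had 2166 and 2093 counts, and CDCA8, which encodes borealin, 2210 and 2250. Their log2 ratios were -0.04 and 0.04, with both intervals spanning 0. The large corona proteins were likewise near control: CENPF had 11902 and 12008 counts with a log2 ratio of 0.02, and CENPE, a kinesin that carries chromosomes to the spindle equator, 4619 and 4645 counts, also at 0.02. CENPF is the deepest-counted of the 45, and its interval ran from -0.01 to 0.06. Of the CENP symbols with other roles, CENPJ, a centriole assembly protein, had 1099 counts against 966 (log2 ratio -0.17, 95% interval -0.30 to -0.05), and CENPV 376 and 377 counts.

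**Figure D3:**
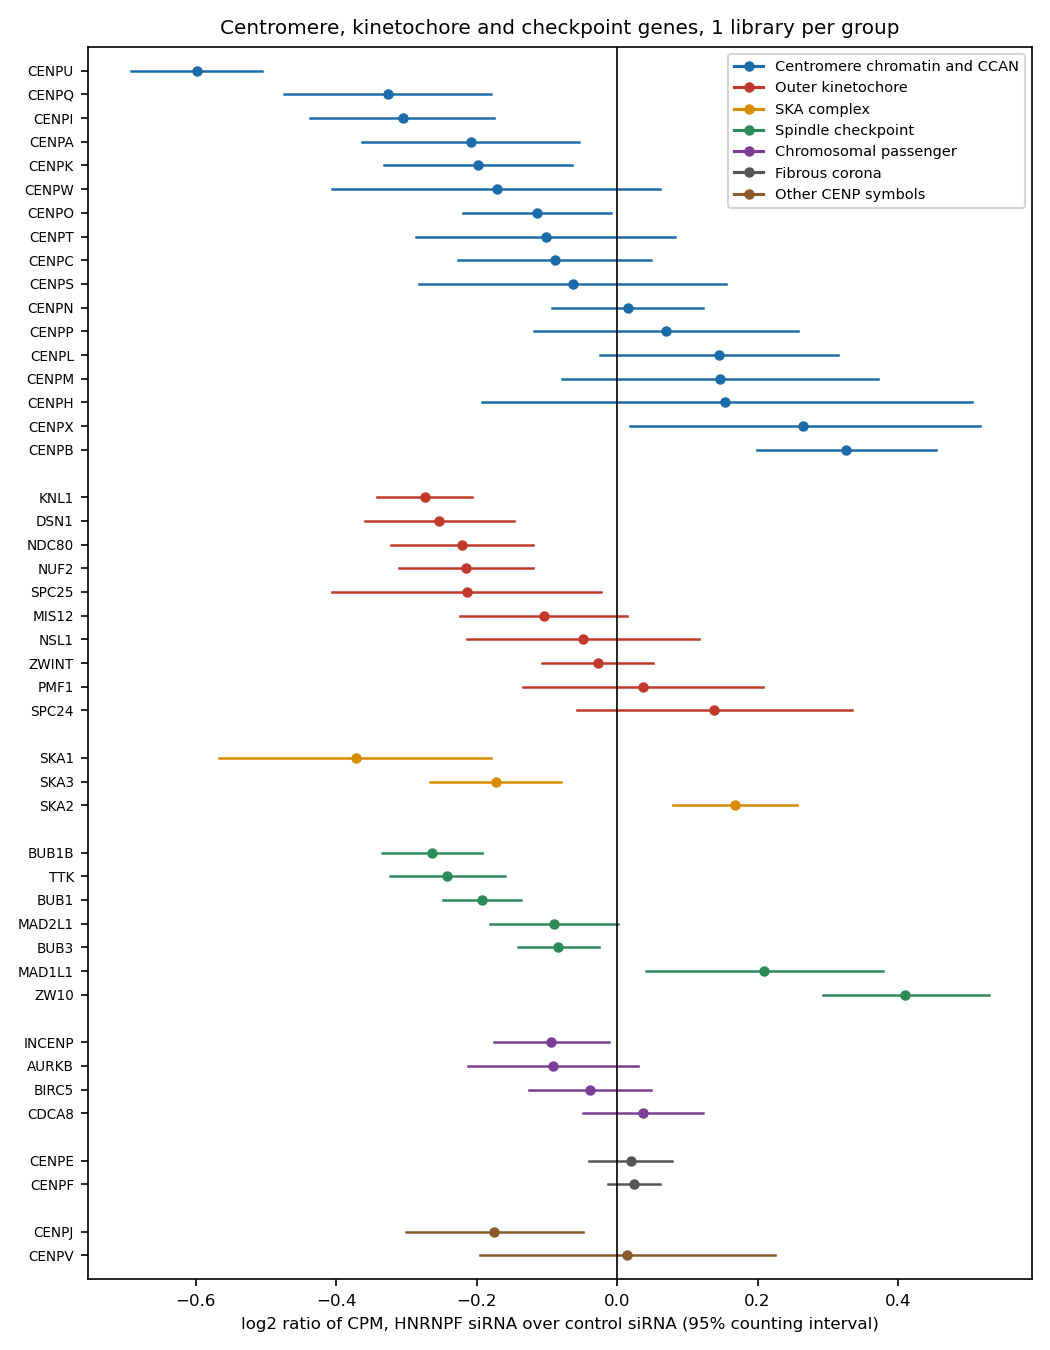
Log2 ratio of CPM, HNRNPF siRNA over control, of the 45 genes by role; bars are exact 95% counting intervals. CENPU at -0.60 and ZW10 at 0.41 mark the ends, and the passenger and corona genes sit within about 0.1 of 0. Left of 0 lie 8 of 10 outer kinetochore genes, where 50.0% of all expressed genes do.

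The farthest subunits of each complex were set against each other, a choice that by itself favours intervals away from 0. Of 11 complexes or role groups, the interval of that difference spanned 0 for CENPA with CENPC and for CENPL with CENPN. It lay above 0 for the other 9, from 0.13 (95% interval 0.01 to 0.25) between INCENP and CDCA8 to 0.67 (95% interval 0.54 to 0.81) between BUB1B and ZW10. Since each pair was picked as the extremes, these intervals overstate how sure a difference is. The number that lay above 0 is therefore no evidence that subunits differ, and sets of other genes of equal size were not compared.

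The log2 ratio of these genes followed the GC content of their transcripts. Over the 45 genes Spearman's rho was 0.46, and over 12041 expressed genes it was 0.27; genes of 1 library pair share depth and library preparation, so no p is given. The 45 transcripts are GC-poor, with a median of 42.6% against 48.4% for all expressed genes. Expressed genes were divided into 4 equal GC classes. In the lowest class, up to 42.2% GC, stood 19 of the 45, with a median log2 ratio of -0.17, where all genes of that class had -0.08. Of these 19 genes 16 (84.2%) were below control, where 66.0% of all genes of that class were. In the next class, up to 48.4% GC, the 11 genes had a median of -0.17 against -0.03. In the class up to 56.8% the median was 0.03 for 8 genes, against 0.03, and in the highest it was 0.15 for 7 genes, against 0.09. The GC-rich end held CENPB (66.2% GC), MAD1L1 (62.6%) and CENPX (60.5%), 3 of the 5 genes with intervals above 0, while ZW10 and SKA2, with 43.7% and 37.4%, were high despite low GC. After removal of the GC and length trend fitted over all expressed genes, the median of the 45 was -0.09, CENPU was at -0.52, ZW10 at 0.47, CENPB at 0.21 and CENPX at 0.08. The checkpoint kinases lay nearer to control, TTK at -0.14 and BUB1 at -0.13, as did CENPK and SKA3 at -0.10, CENPJ at -0.11, BUB3 at -0.03 and MAD1L1 at 0.13. Farther from control lay SKA2 at 0.26, CENPE at 0.10, AURKB at -0.19 and INCENP at -0.15.

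**Figure D4:**
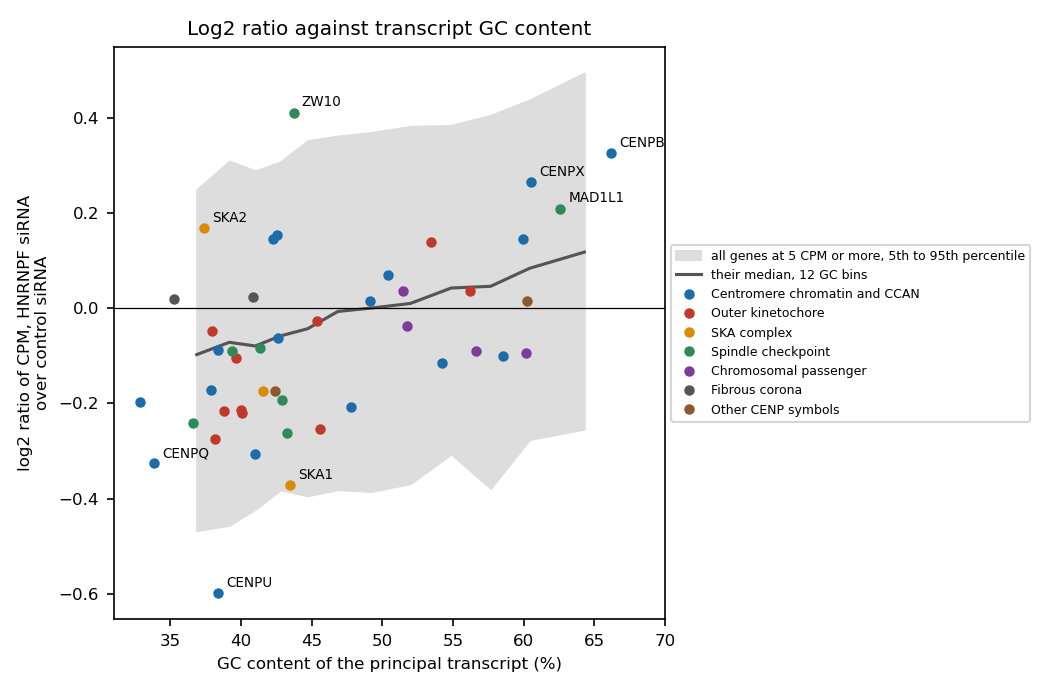
Log2 ratio of CPM, HNRNPF siRNA over control, against transcript GC content (%) for the 45 genes (points, by role), with the median (line) and the 5th to 95th percentile (band) of genes at 5 CPM or more in 12 GC bins. The line climbs from -0.10 to 0.12, and CENPU and ZW10 lie outside the band below and above.

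Genes with the promoter element described above, searched close to the start, lay lower than those without it. The 17 genes with a core close to the start ran from -0.37 to 0.04, and 14 of them were below control, with a median log2 ratio of -0.17. They are SKA1, BUB1B, NDC80, NUF2, SPC25, CENPA, BUB1, SKA3, CENPW, CENPO, INCENP, MAD2L1, CENPC, ZWINT, CENPN, CENPF and CDCA8, from the lowest to the highest. The 20 genes with a promoter entry and no core there had a median of -0.02, with 10 below control, and both the lowest gene, CENPU, and the highest, ZW10, were among them; ZW10 has the letters TTTGAA farther out, at -224. Among other expressed genes 396 had the element, with a median of -0.07 and 62.4% below control, and 9327 had none, with a median of 0.00 and 50.0% below. With the GC and length trend removed the medians of the 45's carriers and non-carriers were -0.13 and -0.05. In other splits of the 37 genes the gap was smaller or had the other sign. A core anywhere in the window gave medians of -0.14 for 18 genes with it and -0.05 for 19 without. CCAAT gave -0.09 for 21 genes with it and -0.11 for 16 without. Core and CCAAT together gave -0.09 for 12 genes and -0.10 for the other 25. These splits were made after the ratios were known and are descriptions.

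GGAAGAA is a heptamer that goes with lower ratios in this data set when found in 3' untranslated regions. That link comes from these same 2 libraries, so the carriers' ratios given here restate it and are no support for it. The heptamer occurred in 5 of the 45 genes, 11.1%, against 19.6% of expressed genes, with 1 site each. The 45 transcripts are also shorter, with a median of 2481 bases against 3244 for all expressed genes. The sites are shown because they are the full set, with the heptamer in capitals, 5' to 3' on the transcript (GENCODE release 29, GRCh38).
SKA1 (chr18:50393338-50393366, plus strand): gatgtgatattGGAAGAAaaagatcaagc
SKA3 (chr13:21153655-21153683, minus strand): ccagtgaagtaGGAAGAAagtatttcaag
INCENP (chr11:62152179-62152207, plus strand): tgggtgggtggGGAAGAAatgggcccagc
CENPC (chr4:67471609-67471637, minus strand): tgtaggacttaGGAAGAAtgaagtgtgat
BIRC5 (chr17:78223841-78223869, plus strand): gaagtgagggaGGAAGAAggcagtgtccc
All 5 genes were below control, from SKA1 at -0.37 to BIRC5 at -0.04, with a median of -0.09, where 62.0% of the 2371 expressed carriers were. The 40 genes without it had the same median to 2 decimals, -0.09, with 24 below control, and CENPU, CENPQ, CENPI, KNL1 and BUB1B were among them. Over all expressed genes carriers had a median of -0.08 and non-carriers with a 3' untranslated region 0.01, with 47.3% of the non-carriers below control.

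Counts and FPKM gave a different sign for 5 of the 45 genes, whose intervals all spanned 0. Dividing the authors' counts by their FPKM gives the mean transcript length they imply, and its log2 ratio between libraries was at least 0.1 higher in the knockdown library for 4 genes and at least 0.1 lower for 0, where 9.57% and 11.0% of all expressed genes passed. For CENPH the implied length was 1162 bases in the control and 1352 in the knockdown library, a log2 difference of 0.22 relative to the median gene, so its log2 ratio is 0.15 from counts and -0.04 from FPKM. CENPI (0.15), CENPP (0.14) and CENPN (0.10) were the others. For CENPI the FPKM ratio is therefore the lower, at -0.43 in the authors' deposited table. At the other end CENPE had an implied length of 8261 and 7768 bases, a log2 difference of -0.09, and an FPKM ratio of 0.13. Which transcripts carry the reads is not analysed here.

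Most genes that work with the kinetochore but are not among the 45 were also below control. Of 64 such genes, all expressed, 47 were below control (73.4%, where 50.0% of all expressed genes were) with a median log2 ratio of -0.13; the interval lay below 0 for 36 (56.2%; 24.5% of all expressed genes) and above 0 for 5 (7.81%; 21.4%). They are more deeply counted, at a median of 132 CPM in the control against 35.3 CPM for all expressed genes and 53.7 CPM for the 45, so an interval excludes 0 at a smaller difference. Condensin, which compacts mitotic chromosomes, had 7 of 8 genes lower and a median of -0.24, with NCAPG2 at -0.31 and NCAPH at -0.30. The list of factors that deposit CENP-A and protect cohesion, in which ITGB3BP (CENP-R) was also placed, had 6 of 7 lower and a median of -0.21. MIS18A, which licenses centromeres, was at -0.25 and ITGB3BP at 0.30 as above. Kinetochore microtubule motors and binders had 10 of 11 lower (median -0.20), led by the spindle proteins HMMR (-0.38) and NUSAP1 (-0.30). Partners in kinetochore assembly had 8 of 9 lower (median -0.14), with the astrin complex proteins KNSTRN at -0.28 and SPAG5 at -0.23.

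Cohesin, the ring that holds sister chromatids, had 8 of 10 genes lower, where 50.0% of all expressed genes were, and a median of -0.09. Among them STAG1 was at -0.38 and RAD21 at -0.25. The anaphase-promoting complex, the ubiquitin ligase that the checkpoint restrains, had 8 of 19 genes with its substrates and partners lower and a median of 0.03. Its subunit CDC23 was at -0.32 and its catalytic RING subunit ANAPC11 at 0.42 (95% interval 0.17 to 0.67). With the GC and length trend removed the median was -0.01 for the anaphase-promoting list, which turns its sign, -0.04 for cohesin and -0.15 for condensin. It was -0.16 for the deposition and protection list with ITGB3BP, -0.14 for motors and binders, -0.12 for assembly partners and -0.09 for all 64. These groups were not tested against each other or against the 45 genes.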

How the data were processed

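Polyadenylated RNA of MDA-MB-231 cells was sequenced, 1 library per siRNA. Per the submitters' processing notes, RSEM, HISAT2, fastp 0.18.0 and StringTie 1.3.1 were used with GRCh38, in roles and with an annotation not given in the sources used here. Deposited by the authors were estimated counts (expected counts, not whole in 8 of the 45 genes), FPKM, a log2 fold change of FPKM, and a p-value with a false discovery rate, per the file headers; the last 2 were not used, nor were 2 columns of per-library means. Counts were rounded and scaled by the trimmed mean of M values over the whole table (edgeR 4.0.16, R 4.3.3). The log2 ratio of CPM used a prior count of 2. Intervals of a ratio come from the exact Clopper-Pearson bounds, at the 95% level, on the knockdown's part of a gene's counts (scipy 1.17.1), and those of a difference are exact conditional odds-ratio intervals; reads without molecular identifiers are not independent molecules. The planned rule named all 45 genes and the 2 farthest genes of each related list. Coordinates, GC content, length and 3' ends came from the principal transcript of GENCODE release 29, which held all 45 genes. The genes and lists were chosen with earlier results of these data known. The ratio and its interval were tested on simulated counts that held counting error alone. That check says nothing about spread between cultures or about reads split between genes.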

Additional observations from a re-analysis of the deposited data

How the results depend on the processing

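The median log2 ratio of the 45 genes (-0.09) stayed below 0 under every setting tried, from -0.10 with DESeq2 size factors to -0.06 with total counts. Between 24 of 40 and 31 of 45 genes were below control. Both DESeq2 size factors were 1, so that setting left the counts unscaled. A change of library scaling shifts all genes alike, so it cannot test the gap between the 45 genes and all expressed genes. The counts at 1.2-fold moved more. With the GC and length trend removed 2 genes in place of 6 were at least 1.2-fold lower (CENPU and SKA1) and 1 in place of 3 at least 1.2-fold higher (ZW10). At 1.5-fold the counts were 1 lower and 0 higher. No single gene whose interval excluded 0 changed sign under total counts, DESeq2 size factors, the authors' FPKM, a prior count of 0.5 or the trend removed. With the authors' FPKM 2 genes moved outside their counting interval, BIRC5 to 0.07 and CENPE to 0.13, and with the trend removed 4 did, TTK to -0.14, BUB1 to -0.13, SKA2 to 0.26 and CENPE to 0.10. The filters changed nothing, since all 45 genes pass them. No paired analysis was possible because each group holds 1 library, and for the same reason leaving out a replicate was not run. Depth limits genes such as CENPH, whose interval is the widest. The ratios rest on 1 culture per siRNA and 1 siRNA, so no spread between cultures is known.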
